A study of Mus musculus with 6 samples.

Results

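The 9 genes Myh7, Myh7b, Myl2, Myl3, Myl6b, Tnnt1, Tnni1, Tnnc1 and Tpm3 encode slow-type myosin, troponin and tropomyosin chains of the sarcomere. They were taken by symbol from the gene column of the authors' deposited table, which holds 25927 rows, and each of the 9 had a row that the authors had tested. The table compares gastrocnemius, a calf muscle made mostly of fast fibres, between wild-type (WT) C57BL/6J mice and C57BL/6J mice in which MLL4SET was knocked out in muscle (MLL4SET-MKO). All mice were 8 weeks old, and each group had 3 libraries that the labels call biological replicates. Kmt2d encodes MLL4, an enzyme that methylates histone H3 at lysine 4, and SET is its catalytic domain. The labels do not give the Cre driver, the design of the targeted allele or whether the controls carried it. Each group has 1 FPKM value per gene (fragments scaled to transcript length and to library size), so values of single mice cannot be shown, and no spread between mice could be computed.

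Muscle contracts when the heads of myosin heavy chains in the thick filament pull on actin in the thin filament. A regulatory and an essential light chain stiffen the lever arm of each head. Tropomyosin lies along actin and blocks the heads, and the troponin complex moves it aside when its C subunit binds calcium, with the I subunit holding actin and the T subunit anchoring the complex to tropomyosin. Slow fibres, which are rich in mitochondria and resist fatigue, carry their own paralogs of nearly all these chains, and many of the same paralogs serve in the heart.

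A row was called when its q-value in the authors' deposited table was under 0.05. Of 13347 tested rows, 11.8% were called, 7.41% lower and 4.44% higher in MLL4SET-MKO. Kmt2d itself had 8.77 FPKM in WT and 5.65 FPKM in MLL4SET-MKO, at q = 0.000903 in the authors' deposited table. This value spans the whole gene and does not isolate the SET part. The median log2 ratio of MLL4SET-MKO over WT across all tested rows was -0.03. Defining genes of mature fast muscle were among the highest rows of the table, with Tnnc2 at 13946 FPKM and Pvalb at 8942 FPKM in WT. Acta1 and Ckm, further markers of the tissue, carried the status HIDATA and are listed at 0. This status marks a locus with too many fragments for an estimate, so the 0 is not a measured level.

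Slow filament genes fell in MLL4SET-MKO. Of the 9, 7 were called lower, none was called higher, and 2 were not called. The background of lower calls is 7.41% of tested rows, or 13% of the 2883 tested rows with at least 20 FPKM in WT. The called genes were Tnnt1, Tnnc1, Myh7, Myl2, Tnni1, Tpm3 and Myl3, all at q = 0.000903, the smallest q of the authors' deposited table. In all, 739 rows share the authors' smallest p-value, Mylpf and Mef2d among them, so this q does not set the 7 apart from those rows. The 7 called genes stood at 57.2 to 360.8 FPKM in WT, and MLL4SET-MKO held between 18.0% and 52.6% of their WT level. Over all 9 genes the median of log2((MLL4SET-MKO FPKM + 1)/(WT FPKM + 1)) was -1.82, against -0.02 over all tested rows. All 7 stayed called at q under 0.01 (background of lower calls 5.05%), over rows with a mean of at least 1 FPKM (7.94%) and with the authors' statistic taken as a normal deviate (1.87%). In these whole-muscle samples, fewer slow fibres and less slow-type RNA per fibre cannot be told apart. Whether any of the neighbouring soleus, a slow muscle, was taken with the gastrocnemius is not stated in the labels, and its part in the result was not tested.

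**Figure D1:**
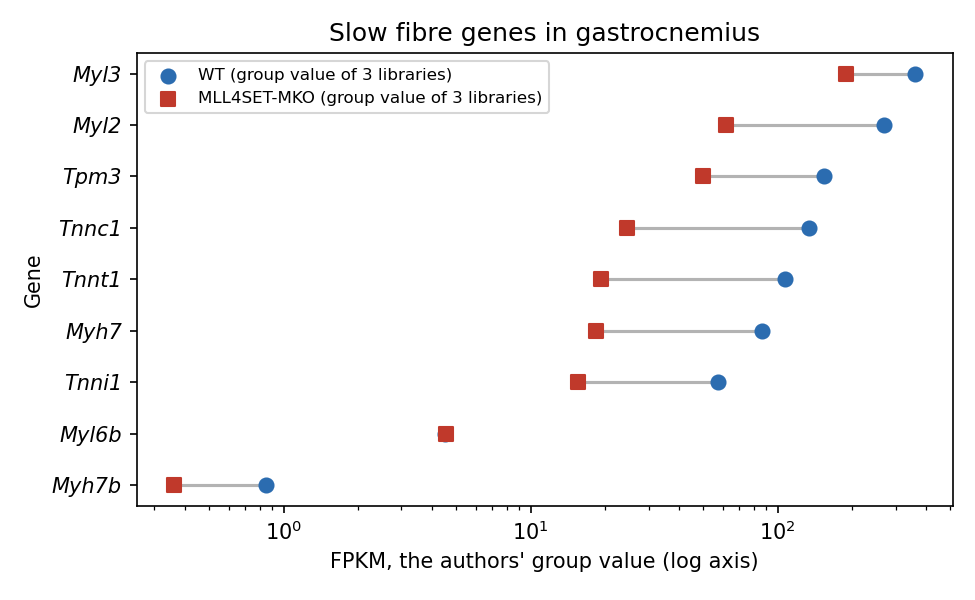
FPKM of the 9 slow filament genes in WT (circles) and MLL4SET-MKO (squares) on a log axis, each point being the authors' value for a group of 3 libraries, with no error shown because values of single libraries were not used. The 7 genes above 50 FPKM in WT lie further left in MLL4SET-MKO, from 361 to 190 FPKM for Myl3 and from 107 to 19.2 FPKM for Tnnt1, while the points of Myl6b overlap.

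The 2 largest falls among the 9 genes were those of slow troponin subunits. Tnnt1, the slow troponin T (chromosome 7, 4504570 to 4515975, minus strand), stood at 107 FPKM in WT and 19.2 FPKM in MLL4SET-MKO, so that 18.0% of the WT level was left. Its log2 ratio was -2.48, with a 95% interval of -2.73 to -2.22 worked back from the authors' test statistic. Tnnc1, the calcium-binding slow and cardiac troponin C (chromosome 14, 31208312 to 31211711, plus strand), stood at 134 and 24.5 FPKM, with 18.3% left and a log2 ratio of -2.45 (interval -2.73 to -2.17). Tnni1, the slow inhibitory subunit (chromosome 1, 135799421 to 135810989, plus strand), stood at 57.2 and 15.5 FPKM, with 27.1% left and a log2 ratio of -1.89 (interval -2.18 to -1.59). Tnnt1 and Tnnc1 fell to nearly the same degree, and Tnni1 fell less than either. The log2 ratio of Tnnt1 minus that of Tnni1 was -0.59 (interval -0.98 to -0.20), and that of Tnnt1 minus Tnnc1 was -0.03 (interval -0.41 to 0.36). The difference of Tnni1 minus Tnnc1 was 0.57 (interval 0.16 to 0.97), and on a wider reading of the standard error, described with the pairs of genes, both differences from Tnni1 held 0. In FPKM, the level of Tnnc1 was 1.26 times that of Tnnt1 in WT and 1.28 times in MLL4SET-MKO, whereas Tnnt1 went from 1.87 to 1.24 times Tnni1.

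Among myosin chains, the heavy chain and the regulatory light chain fell alike and the essential light chain fell less. Myh7, the slow (beta) myosin heavy chain (chromosome 14, 54968787 to 54994549, minus strand), stood at 86.7 FPKM in WT and 18.3 FPKM in MLL4SET-MKO, with 21.1% left and a log2 ratio of -2.24 (interval -2.50 to -1.99). Myl2, the slow and ventricular regulatory light chain (chromosome 5, 122100980 to 122106854, plus strand), stood at 270.1 and 62.0 FPKM, with 22.9% left and a log2 ratio of -2.12 (interval -2.39 to -1.86). Myl3, the slow and ventricular essential light chain (chromosome 9, 110763681 to 110769794, plus strand), was the most abundant of the 9 genes per length, at 360.8 and 189.8 FPKM. It kept 52.6% of its WT level, a log2 ratio of -0.93 (interval -1.18 to -0.68). The 2 light chains differed in their change, Myl2 minus Myl3 being -1.20 on the log2 scale (interval -1.56 to -0.83), and the FPKM level of Myl3 went from 1.34 to 3.06 times that of Myl2. Myl2 stayed near 3 times the FPKM level of Myh7, at 3.11 times in WT and 3.39 times in MLL4SET-MKO, and the difference of their log2 ratios, Myh7 minus Myl2, was -0.12 (interval -0.48 to 0.24).

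The Myh7 row shares its locus with the antisense transcript Mhrt, listed at 0.245 FPKM in WT and 0.0291 FPKM in MLL4SET-MKO and not tested by the authors. The labels do not say whether the counting used strand, so reads of Myh7 and Mhrt may not be separable. The alpha heavy chain gene Myh6, the cardiac paralog next to Myh7 and very similar to it in sequence, was listed at 0.35 and 0.196 FPKM and was not tested either. The labels do not say how reads that match both paralogs were assigned.

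Tpm3, which encodes the slow fibre alpha-tropomyosin and also tropomyosins of the cytoskeleton in many cell types (chromosome 3, 90072651 to 90100902, plus strand), stood at 153.9 FPKM in WT and 49.8 FPKM in MLL4SET-MKO. It kept 32.4% of the WT level, a log2 ratio of -1.63 (interval -1.87 to -1.38). This was a smaller fall than that of Tnnt1, the difference of Tnnt1 minus Tpm3 being -0.85 (interval -1.21 to -0.50). RefSeq lists 2 transcription starts inside the Tpm3 locus, and the deposited value sums all transcripts of the gene. Among 8 tested rows of cytoskeletal actin, tropomyosin and non-muscle myosin genes, none was called by the authors' q, against 11.8% of all tested rows. Their log2 ratios ran from -0.28 to 0.14. Actb stood at 168.9 FPKM in WT and 170 FPKM in MLL4SET-MKO, and Actg1 at 213.6 and 175.4 FPKM (q = 0.14 in the authors' deposited table).

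Myl6b and Myh7b were not called. Myl6b, an essential light chain known from slow muscle and from non-muscle cells (chromosome 10, 128494157 to 128498685, minus strand), stood at 4.49 FPKM in WT and 4.53 FPKM in MLL4SET-MKO. Its log2 ratio was 0.01 with an interval of -0.41 to 0.43, which leaves out falls as large as those of the other light chains, and Myl3 minus Myl6b was -0.94 (interval -1.43 to -0.45). Myh7b, a heavy chain related to Myh7 (chromosome 2, 155611243 to 155692384, plus strand), stood at 0.847 FPKM in WT and 0.359 FPKM in MLL4SET-MKO. The log2 ratio of -1.24 had an interval of -3.12 to 0.64, or -4.50 to 2.02 on the wider reading of the standard error. The p-value of the authors' test for this row, 0.40, is larger than the first interval implies, so that interval is too narrow. At this level neither no change nor a fall like that of Myh7 could be told apart. Myh7b was the one gene of the 9 with a mean under 1 FPKM, and its deposited locus is shared with Trpc4ap, at 51.7 and 48.4 FPKM.

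Both heavy chain genes carry a microRNA inside an intron, miR-208b in Myh7 and miR-499 in Myh7b, which are known to act on repressors of the slow programme in mice. Their mature sequences are shown because they tie the 2 host genes together. Capitals mark the seed, bases 2 to 8.
mmu-miR-208b-3p: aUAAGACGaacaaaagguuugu
mmu-miR-499-5p: uUAAGACUugcagugauguuu
The seeds share 6 of 7 bases (RefSeq sequences, GRCm38.p6). The rows of Mir208b and Mir499 are listed at 0 FPKM in both groups and were not tested, which says nothing about the mature microRNAs, since libraries of messenger RNA do not measure them.

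The 7 called genes did not all fall to the same degree. Of 21 pairs among them, 12 had a difference in log2 ratio whose 95% interval left out 0. With the wider standard error obtained by reading the authors' test statistic as a normal deviate, 9 of 21 did. The intervals are not adjusted for the number of pairs and treat the errors of different genes as independent. All 6 pairs that hold Myl3 left out 0 on both readings. Among Tnnt1, Tnnc1, Myh7 and Myl2, none of the 6 pairs did. The log2 ratios of Tnni1 and Tpm3 lay between those of these 4 genes and Myl3. Tnni1 was not set apart from Myh7 (Myh7 minus Tnni1, interval -0.74 to 0.02) or from Myl2 (Myl2 minus Tnni1, -0.63 to 0.15). The differences of Tnni1 from Tnnt1 and from Tnnc1 and of Myl2 from Tpm3 were the 3 that held 0 only on the wider reading.

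Upstream sequences were examined for the called genes and, beside them, for the genes that were not called. RefSeq (GRCm38.p6) has a promoter window whose start lies within 10 bases of the deposited locus for 8 of the 9 genes, Myl2 being the exception. The 250 bases before the start are printed for the 3 genes with the largest falls among those 8, for Myl3, which fell less, and for Myl6b, which was not called. The windows are chr7:4515976-4516225 (minus strand) for Tnnt1, chr14:31208062-31208311 (plus) for Tnnc1, chr14:54994550-54994799 (minus) for Myh7, chr9:110763428-110763677 (plus) for Myl3 and chr10:128498686-128498935 (minus) for Myl6b. Capitals mark matches, on either strand, to an E-box (CANNTG, bound by MyoD-type factors), an M-CAT element (CATTCCT, bound by TEAD factors), a TATA box (TATAAA), a MEF2 site or a CArG box (bound by serum response factor).
Tnnt1: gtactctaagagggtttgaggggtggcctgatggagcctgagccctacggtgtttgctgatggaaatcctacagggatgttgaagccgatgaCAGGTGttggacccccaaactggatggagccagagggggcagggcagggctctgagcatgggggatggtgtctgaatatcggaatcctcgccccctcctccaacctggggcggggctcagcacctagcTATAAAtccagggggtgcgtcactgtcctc
Tnnc1: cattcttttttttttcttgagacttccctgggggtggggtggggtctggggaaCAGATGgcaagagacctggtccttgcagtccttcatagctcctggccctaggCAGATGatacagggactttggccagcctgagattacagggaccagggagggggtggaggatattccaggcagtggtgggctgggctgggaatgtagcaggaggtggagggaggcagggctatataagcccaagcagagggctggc
Myh7: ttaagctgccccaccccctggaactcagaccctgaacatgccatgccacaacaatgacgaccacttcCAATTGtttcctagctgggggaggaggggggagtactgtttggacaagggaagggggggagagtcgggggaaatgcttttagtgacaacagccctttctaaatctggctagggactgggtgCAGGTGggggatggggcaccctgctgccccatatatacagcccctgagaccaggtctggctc
Myl3: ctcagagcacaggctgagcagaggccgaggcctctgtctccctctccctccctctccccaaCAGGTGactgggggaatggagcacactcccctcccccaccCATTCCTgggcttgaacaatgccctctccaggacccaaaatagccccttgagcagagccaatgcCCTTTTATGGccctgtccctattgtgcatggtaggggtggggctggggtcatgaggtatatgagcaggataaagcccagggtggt
Myl6b: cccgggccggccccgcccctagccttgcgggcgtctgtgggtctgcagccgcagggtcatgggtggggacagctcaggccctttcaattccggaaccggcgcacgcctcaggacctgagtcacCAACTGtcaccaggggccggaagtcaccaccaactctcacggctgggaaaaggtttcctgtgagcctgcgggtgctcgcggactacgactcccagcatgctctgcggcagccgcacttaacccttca
All 8 windows held an E-box, as did 66.2% of 32851 RefSeq windows of this length. None of the 8 held a MEF2 site, which 2.92% of all windows hold, and that says only that these letters are not within 250 bases. Of the 8, Tnnt1 held the TATA box letters TATAAA (12.4% of all windows). Other forms of the TATA box were not searched, so windows without these letters may still hold one. Of the 8, Myl3 held the M-CAT element (4.51%) and the CArG box (1.47%). Of 7 windows of fast paralogs, 6 held an E-box and 2 (Myh4 and Myl1) held the letters TATAAA on either strand. In Myl1 the only match was on the opposite strand, 95 to 90 bases before the start. Tpm1 held an M-CAT element, and Myh4 held both a MEF2 site and a CArG box. E-boxes were found in the 6 called genes with a window and in Myl6b alike.

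Fast paralogs take the same places in the filaments and, apart from Mylpf, none of those tested was called lower. Of 10 fast paralogs, 7 were tested and 1 was called lower, against 7.41% of all tested rows. Mylpf, the fast regulatory light chain, was called lower, at 10773 FPKM in WT and 6959 FPKM in MLL4SET-MKO, a log2 ratio of -0.63 (interval -0.93 to -0.33), a call that was lost with the authors' statistic taken as a normal deviate. The other 6, Myh1, Myh2, Myl1, Tnni2, Tnnc2 and Tpm2, were not called and had log2 ratios from -0.21 (Myh2) to 0.20 (Tnni2). Myh4, Tnnt3 and Tpm1 had failed estimates, so the main fast heavy chain, the fast troponin T and the alpha-tropomyosin of fast fibres give no ratio. In all 7 slow and fast pairs that could be formed, the slow gene fell more than its paralog. The difference of log2 ratios was largest for Tnnc1 minus Tnnc2, at -2.42 (interval -2.84 to -2.004), and smallest for Myl3 minus Myl1, at -0.999 (interval -1.42 to -0.58). Myh7 minus Myh1 was -2.40 and Myh7 minus Myh2, the heavy chain of oxidative fast fibres, was -2.03. Both differences are uncertain, because Myh1 and Myh2 are close in sequence to Myh4, which had no estimate. Tnni1 minus Tnni2 was -2.09 and Tpm3 minus Tpm2 was -1.66, Tpm2 being a beta-tropomyosin that slow fibres use too. For the regulatory light chains the difference, Myl2 minus Mylpf, was -1.49 (interval -1.90 to -1.09), since Mylpf fell as well.

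**Figure D2:**
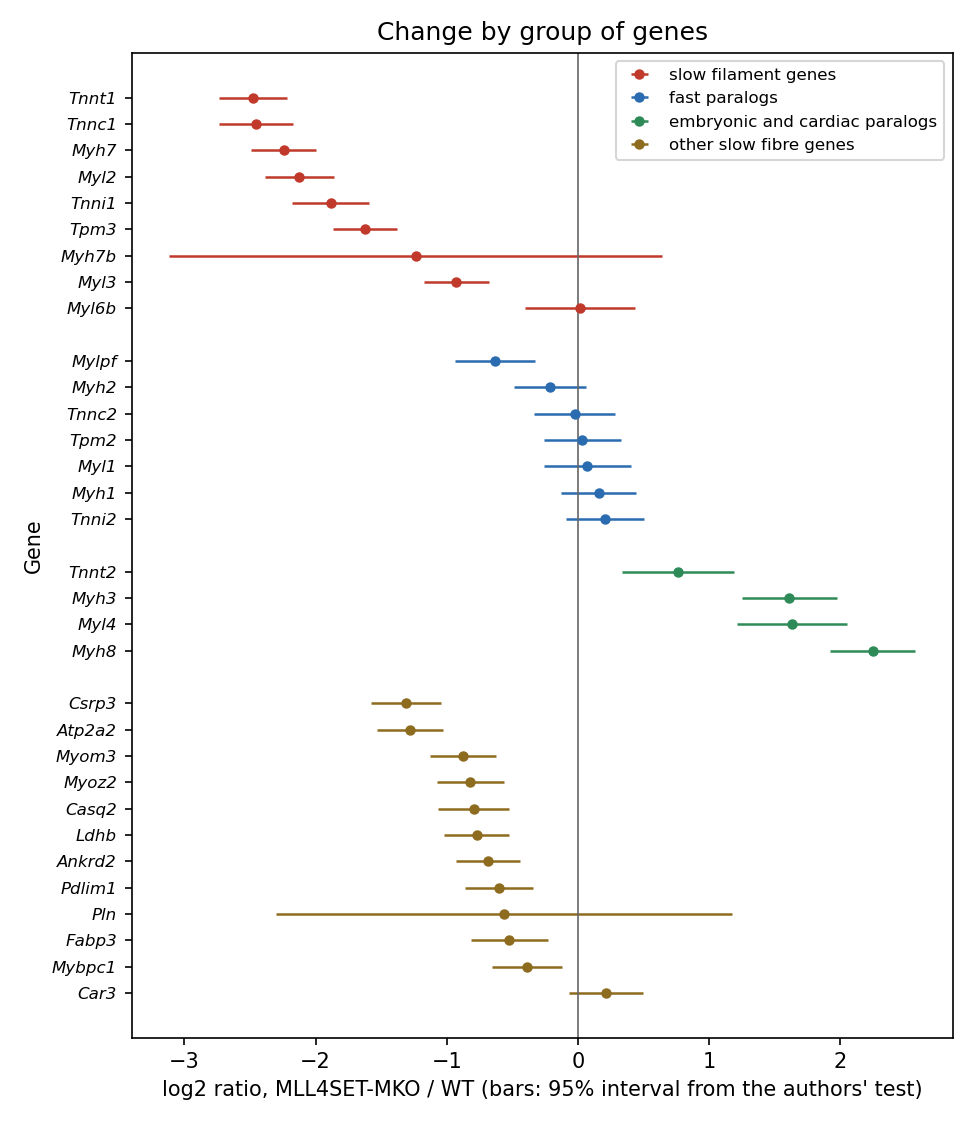
Log2 ratio of MLL4SET-MKO over WT for tested genes of 4 groups, with bars for the 95% interval worked back from the authors' test. The slow filament genes reach -2.48 (Tnnt1), the fast paralogs lie between -0.63 (Mylpf) and 0.20 (Tnni2), the embryonic and cardiac paralogs between 0.76 (Tnnt2) and 2.24 (Myh8), and the other slow fibre genes between -1.31 (Csrp3) and 0.21 (Car3).

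The slow gene was the smaller part of every pair in WT and a smaller part still in MLL4SET-MKO. As FPKM is scaled to length, the slow gene can be given as a percent of the pair. Tnni1 made up 0.68% of Tnni1 plus Tnni2 in WT and 0.161% in MLL4SET-MKO, and Tnnc1 made up 0.953% and 0.179% of its pair with Tnnc2. Myl2 made up 2.45% and 0.883% of its pair with Mylpf, and Myl3 made up 2.76% and 1.40% of its pair with Myl1. Tpm3 made up 9.04% and 3.05% of Tpm3 plus Tpm2, which leaves out Tpm1. Myh7 made up 16.9% and 4.73% of its pair with Myh2, and 11.1% and 2.32% of its pair with Myh1. Shares of heavy chains are not comparable with those of the other chains, because Myh4 is missing from them. Summed over the 9 genes, the FPKM values came to 1175 in WT and 384 in MLL4SET-MKO.

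**Figure D3:**
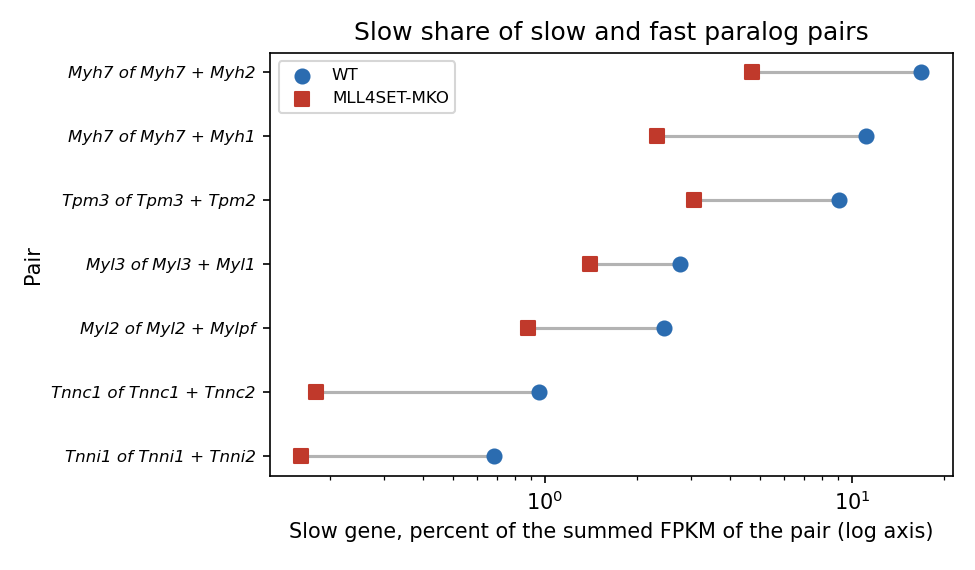
Slow gene as a percent of the summed FPKM of the slow and fast paralog, on a log axis, in WT (circles) and MLL4SET-MKO (squares), 1 group value each. The share is lower in MLL4SET-MKO in all 7 pairs, from 16.9% to 4.73% for Myh7 with Myh2 and from 0.68% to 0.161% for Tnni1 with Tnni2.

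Embryonic and cardiac paralogs of the same chains went the other way at low levels. All 4 that were tested were called higher, against a background of 4.44%, and Tnnt2 was not called with the authors' statistic taken as a normal deviate. The other 3, Myh6, Myl7 and Tnni3, were listed under 0.4 FPKM in both groups and not tested. Myl4, the embryonic and atrial essential light chain, rose from 4.65 to 14.4 FPKM (log2 ratio 1.63). The neonatal heavy chain Myh8 rose from 0.495 to 2.35 FPKM and the embryonic heavy chain Myh3 from 0.402 to 1.23 FPKM. Tnnt2, the cardiac troponin T, rose from 1.49 to 2.53 FPKM (log2 ratio 0.76). The summed gain of the 4, from 7.04 to 20.5 FPKM, was small beside the summed loss of the 9 slow genes. Myh3 and Myh8 lie in 1 cluster with Myh4, Myh1 and Myh2 and are close to them in sequence. Because Myh4 had no estimate, the values of Myh3 and Myh8, and those of Myh1 and Myh2, are uncertain.

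Other slow fibre genes fell too, with log2 ratios no lower than -1.31. Of 12 such genes, all of them tested, 10 were called lower and none higher, against 7.41% of all tested rows called lower, and 7 of the 10 stayed called with the authors' statistic taken as a normal deviate (1.87%), without Pdlim1, Fabp3 and Mybpc1. The median log2((MLL4SET-MKO FPKM + 1)/(WT FPKM + 1)) was -0.70. Csrp3, a muscle LIM protein of the Z-disc, fell from 87.4 to 35.2 FPKM (log2 ratio -1.31), and Atp2a2, the slow and cardiac calcium pump of the sarcoplasmic reticulum, from 129 to 53.2 FPKM (log2 ratio -1.28). The Z-disc gene Myoz2 fell from 102.9 to 58.3 FPKM, and the M-band gene Myom3 from 14.8 to 8.04 FPKM. Pln and Car3 were the 2 that were not called. Car3, a carbonic anhydrase abundant in slow muscle, stood at 1948 FPKM in WT and 2257 FPKM in MLL4SET-MKO.

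Among 23 transcription regulators linked to fibre type, 6 were called lower and 1 higher, against 7.41% and 4.44% of all tested rows, and 16 were not called. None of the 7 was called with the authors' statistic taken as a normal deviate (adjusted over all rows). On the authors' q, Mef2d fell from 74.8 to 45.1 FPKM, while Mef2c, another gene of the MEF2 family, rose from 147.2 to 231.6 FPKM. Lower values were also called for Ppargc1a (PGC-1 alpha, a coactivator of mitochondrial genes), with 12.3 FPKM in WT and 7.65 FPKM in MLL4SET-MKO. Ppard, a nuclear receptor for fatty acids, had 13.3 and 9.17 FPKM and overlaps Scube3, Zfp523 and Def6 in the table. Sox6, known in mice as a repressor of slow genes in fast fibres, stood at 29.7 and 32.4 FPKM (q = 0.65 in the authors' deposited table). The log2 ratios of the 23 ran from -0.73 to 0.65, whereas 6 of the 7 called slow filament genes were at -1.63 or lower.

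Few genes of similar level fell as far. Of the 2883 tested rows with at least 20 FPKM in WT, 22 had a log2 ratio of -1.5 or lower, and 6 of these 22 were slow filament genes. By log2 ratio, Tnnt1 ranked 4, Tnnc1 5, Myh7 7, Myl2 10, Tnni1 14, Tpm3 21 and Myl3 74 among the 2883, counted from the largest fall. The 5 called genes nearest to the median log2 ratio of the called slow genes, -2.12, were Tmem52, Fam57b, Cish, Smtnl1 and Clu, at -2.12, -2.14, -2.20, -2.04 and -2.02. This likeness rests on 2 group values per gene. Tmem52 stood at 66.9 and 15.4 FPKM, and Smtnl1, which encodes a smoothelin-like muscle protein, at 42.8 and 10.4 FPKM.

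**Figure D4:**
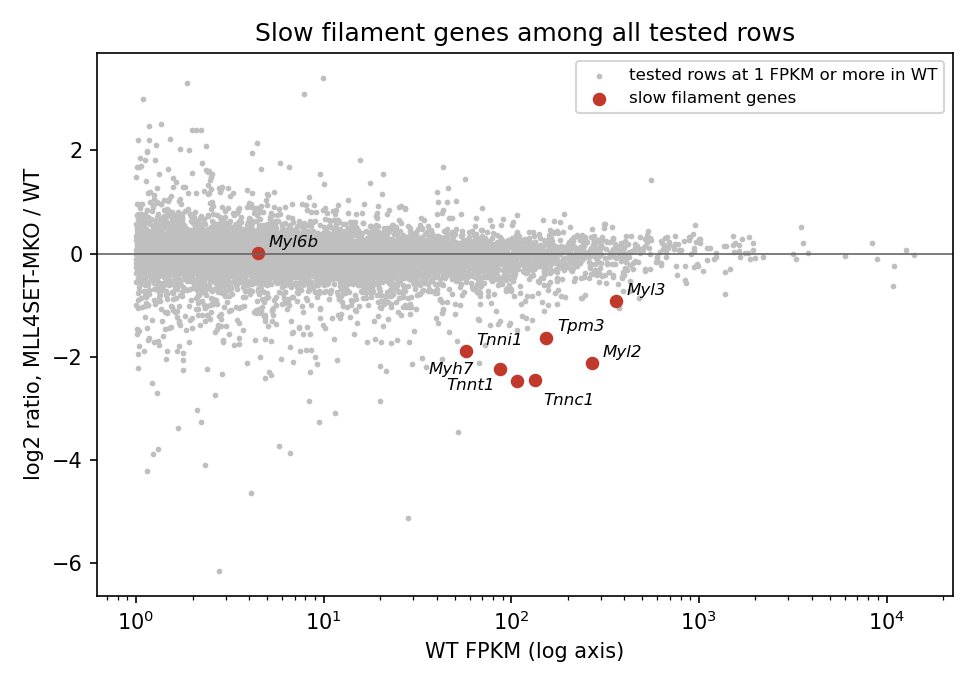
Log2 ratio of MLL4SET-MKO over WT against WT FPKM (log axis) for 11225 tested rows at 1 FPKM or more in WT (grey) with 8 slow filament genes marked, Myh7b being under 1 FPKM. Of the marked genes, 6 lie at -1.63 or lower, Myl3 at -0.93 and Myl6b at 0.01.

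By the authors' q, no marker of another cell type was called lower, against 7.41% of all tested rows. Of 10 macrophage markers, 5 were called higher and none lower, against 4.44% of all tested rows called higher, and with the authors' statistic taken as a normal deviate only Lyz2 was called (1.24% of all rows). Over these 10 markers the summed FPKM was 101 in WT and 159 in MLL4SET-MKO. None was called, by the authors' q, among 8 endothelial, 7 fibroblast and 6 smooth muscle or pericyte markers and among 11 rows of Schwann cell, adipocyte and erythroid markers. Of all tested rows, 11.8% were called in either direction, and in lists of 6 to 11 rows an absence of calls differs little from that share. The intervals of Cnn1 (-2.70 to 2.35) and Cfd (-1.70 to 2.52) were too wide to tell a change. Summed FPKM of these lists was 151 and 138 for endothelial, 831 and 875 for fibroblast, 213 and 184 for smooth muscle, and 721 and 727 for the last list, in WT and MLL4SET-MKO. No defining marker of these lists that has a row stood at 0. What part the higher macrophage markers have in the fall of the slow genes was not tested.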

How the data were processed

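Messenger RNA of gastrocnemius was sequenced in 3 WT and 3 MLL4SET-MKO libraries, which the labels call biological replicates. The submitters' processing notes name TopHat2 2.0.14, Cufflinks 2.2.1, FastQC 0.11.3 and bcl2fastq, with mm10 (GRCm38). Per the file headers the table has the layout of Cuffdiff, and the authors gave 1 FPKM per group. Its test statistic (a score), p-value and q-value are the authors' deposited ones. The labels state neither the annotation nor the scaling between libraries nor the use of strand, and group values carry no read depth.

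Rows with the status HIDATA (11) or not tested (12569) gave no ratio. Log2 ratios were computed from FPKM without a pseudocount, and log2 changes with 1 FPKM added, which understates low genes. The authors' p-values matched a normal deviate of 1.73 times the statistic (median of 7346 rows), and each standard error is the log2 ratio over that deviate. The standard error is the authors' model of spread, not one computed here, and 20 tested rows had no readable statistic. Calls use q under 0.05 over all 13347 tested rows.

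Named genes are the 9 members, fast paralogs, up to 4 called genes of each context list with the largest log2 change (or the 2 highest where fewer than 2 were called) and the 5 genes of like change. Further genes in the text were picked with their values in view. The members and lists were chosen with earlier results of these data known. Alternatives changed the pseudocount, scaling, filter, threshold and reading of the statistic. The calculation was tested on data simulated from the same model of spread. That test cannot show whether the standard errors are right for the real data. Strands and gene types are from GENCODE M21, and coordinates are those of the deposited table on mm10, with starts counted from 1. Python 3.11.15, pandas 2.3.3 and scipy 1.17.1 were used.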

Additional observations from a re-analysis of the deposited data

How the results depend on the processing

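With the deposited statistic taken as a normal deviate, a q threshold of 0.01, a filter at a mean of 1 FPKM or rows with a single symbol, 7 members were called each time. On the reading as a normal deviate, calls over all rows went from 1581 to 415. On the same reading, applied to the other lists after the data were seen, lower calls among regulators went from 6 to 0 and higher ones from 1 to 0, lower calls among fast paralogs from 1 to 0 and higher calls among macrophage markers from 5 to 1, and other slow genes went from 10 to 7 and embryonic and cardiac paralogs from 4 to 3. This reading leaves out the factor of 1.73 between the statistic and the authors' p-value, so a row needs a larger statistic to be called. The median change of -1.82 ran from -1.89 (no pseudocount) to -1.74 (equal upper quartiles). Scaling shifted log2 ratios by 0.02 to 0.08. Every member kept its direction and its side of the threshold, and all 7 slow and fast differences kept an interval below 0 on the wider standard error, Myl3 minus Myl1 coming nearest to 0 (-1.72 to -0.27). No library could be left out, and no replicate block was fitted. No paired analysis was possible because the table gives 1 value per group. Read depth is unknown.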

Other observations

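The slow genes lie on 8 chromosomes, none of them chromosome 15, which holds Kmt2d. Whether position plays a part in their fall was not tested. Within 100 kb of the 9 genes, 52 other tested rows were found, of which 2 were called lower and 2 higher (7.69%, against 11.8% of all tested rows). Tnni1 lies 25.3 kb from Tnnt2, which was called higher. The 2 lower neighbours were both near Myl2: Ppp1cc, a protein phosphatase 1 subunit, at 87.4 FPKM in WT and 60.9 FPKM in MLL4SET-MKO, and a row with no symbol 1504 bases from Myl2, at 0.515 and 0.0808 FPKM. Ggt7, near Myh7b, was the other gene called higher, at 0.372 and 0.956 FPKM. Myl6, the non-muscle and smooth muscle paralog of Myl6b that lies 331 bases from it, stood at 104.6 and 115.1 FPKM and was not called.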
